A study of Mus musculus with 12 samples.

Results

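Interferon signalling genes and interferon-stimulated genes outside antigen presentation were followed across 4 treatments of a mouse breast cancer line. The set holds 37 genes, matched by symbol to the Ensembl identifiers of a count table of 55414 gene identifiers, and each of the 37 had a row. The cells were EO771-tdT-LM2, labelled as breast cancer cells of WT genotype. EO771 is a line from a mouse mammary tumour, and the labels describe no other model. All 12 cultures were kept in medium with 10 mg/dl glucose and 1% FBS, for 30 minutes before seeding in plates of 12 wells and then through 24 hours of treatment. GDNF+anti-NCAM1 cultures received 0.2 µg/mL GDNF and 2.5 µg/mL antibody to NCAM1. GDNF cultures received 0.2 µg/mL GDNF with 2.5 µg/mL IgG. Anti-NCAM1 cultures received 2.5 µg/mL of the antibody with 0.1% BSA, and control cultures received 0.1% BSA with 2.5 µg/mL IgG. GDNF is a secreted growth factor, and NCAM1 is an adhesion molecule of the cell surface that can act as a receptor for it. Each group had 3 libraries, and the labels do not say whether these came from separate experiments, so the p-values measure only the spread between these cultures.

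Type I interferons bind the receptor chains Ifnar1 and Ifnar2, and interferon gamma binds Ifngr1 and Ifngr2. The type I receptor activates a complex that contains Stat2 and Irf9 and binds interferon-stimulated response elements, whereas the gamma receptor acts through gamma-activated sites. Their targets include antiviral effectors, sensors of foreign RNA and DNA, and proteins that amplify or damp the response, and tumour cells often keep some of them on without added interferon.

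The response-element letters GAAANNGAAA, read on both strands, were searched in RefSeq promoter windows of GRCm38.p6. These run from 250 bases before to 50 bases after each listed start of a gene. There were 32851 windows for 27025 genes, and a gene counted as a match if any of its windows held the letters. A window was at hand for 31 of the 37 members, and 13 of these held the letters (41.9%), against 1079 of 27025 genes of the table (3.99%). The gamma-site letters TTCNNNGAA, which read the same on both strands, were in windows of 11 of the 31 members (35.5%), against 9.55% of all genes. Matches are a description of these windows and not binding sites. The 150 bases before the start are given here, 5′ to 3′ on the gene's strand, for a pair of members near the detection limit (Isg15, chr4:156200819-156200968, minus strand, and Ifit1, chr19:34640739-34640888, plus strand) and for a pair that could be tested (Bst2, the highest member per length, chr8:71537473-71537622, and Irgm1, of middling level, chr11:48871421-48871570, both minus strand). They are shown because members of high, middling and barely detected level hold the same letters. Capitals mark the matches of GAAANNGAAA on either strand, some of which overlap. Of these 4 windows, that of Bst2 also holds TTCNNNGAA, which overlaps the capitals and is otherwise left in lower case.
Isg15: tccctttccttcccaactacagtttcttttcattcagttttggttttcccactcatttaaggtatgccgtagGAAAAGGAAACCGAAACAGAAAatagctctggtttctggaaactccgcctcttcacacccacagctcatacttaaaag
Ifit1: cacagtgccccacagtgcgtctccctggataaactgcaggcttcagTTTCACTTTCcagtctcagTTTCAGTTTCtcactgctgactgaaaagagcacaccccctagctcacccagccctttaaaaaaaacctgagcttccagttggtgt
Bst2: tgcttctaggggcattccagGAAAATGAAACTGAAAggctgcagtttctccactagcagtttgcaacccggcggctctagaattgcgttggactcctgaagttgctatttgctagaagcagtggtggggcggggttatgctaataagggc
Irgm1: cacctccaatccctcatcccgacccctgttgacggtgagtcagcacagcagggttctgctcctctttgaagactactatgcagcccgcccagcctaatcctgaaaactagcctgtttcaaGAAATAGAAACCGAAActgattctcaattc
The letters were held by 5 of the 8 members with a window that had too few counts to test (62.5%) and by 8 of the 23 that could be tested (34.8%). For the gamma-site letters the shares ran the other way, with 1 of the 8 untested members (12.5%) and 10 of the 23 tested ones (43.5%). Adar, Isg20, Irf1, Irf9 and Ifit2, all tested, had several windows each, which gave them more places to match. Adar, Isg20, Irf1 and Ifit2 held the gamma-site letters in only 1 of their windows.

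Total counts per library were 5616398 to 8093754, so 3 counts corresponded to 0.371 to 0.534 CPM, the count scaled to a fixed library size. The members took up 0.0760% to 0.0852% of all counts. GDNF replicate 3 stood apart: 10.0% of its counts were on mitochondrially encoded genes, against 3.97% to 5.12% in the other 11 libraries. The slope of its levels on the GC content of the transcripts was −0.29 on the log2 scale per 10 percentage points, against −0.13 to 0.10 in the others. Other groups were split as well, by the chi-square per gene between a pair of libraries, larger where their counts differ more. It was 1.90 for control replicates 1 and 2, and 13.6 and 13.3 for replicate 3 with them. For anti-NCAM1 it was 1.88 for replicates 1 and 3, and 20.8 and 23.5 for replicate 2 with them. Control replicate 3 and anti-NCAM1 replicate 2 lay closer, at 3.10. For GDNF replicate 3 it was lowest at 58.6, with anti-NCAM1 replicate 2. GDNF replicates 1 and 2 were at 7.05 with each other. GDNF replicate 1 lay closer to the GDNF+anti-NCAM1 libraries, at 1.825 to 2.47. GDNF replicate 2 lay closer to anti-NCAM1 replicates 1 and 3, at 2.44 and 2.67. Control replicate 3 was at 2.10 with GDNF+anti-NCAM1 replicate 3. The cause was not tested. Of 7 epithelial and mammary markers, Krt8 (537 CPM) and Epcam (15.4 CPM) were well detected. Krt18 had 3 counts in all libraries together, and Krt19 and Krt7 had none. Cdh1 and Esr1 reached at most 0.512 and 0.434 CPM in any library. Of 10 leukocyte markers, Cd68 (6.61 CPM) and Lyz2 (1.70 CPM) had counts enough to test, Ptprc had 1 count in all, and Adgre1 and Siglech had none. The summed level of that list, nearly all of it from Cd68 and Lyz2, was 7.80 to 8.64 CPM with GDNF+anti-NCAM1, 7.68 to 8.11 CPM with GDNF, 8.37 to 10.1 CPM with anti-NCAM1 and 7.45 to 9.98 CPM in controls. Of 6 fibroblast markers, Col1a1 (308 CPM), Pdgfra (228 CPM) and Col3a1 (134 to 181 CPM over the libraries) were high. Col1a2 and Dcn reached at most 0.145 and 0.150 CPM in any library, and Lum had no count.

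The members were expressed over a wide range without added interferon. On a scale of CPM per kilobase of the longest transcript, Bst2, which tethers budding virus to the cell surface, was highest at 68.0, followed by Zc3hav1, a zinc finger protein that binds CpG-rich viral RNA, at 39.4. Ifnar1, Samhd1, Irf3, Parp12 and Trim25 lay between 13.2 and 18.0. At the other end, 12 members had too few counts to enter the test: Isg15, Oas1a, Dhx58, Usp18, Ifit3, Xaf1, Ifit1, Gbp2, Oasl2, Parp14, Irf7 and Rtp4, with 0.0131 to 0.692 CPM per kilobase. Only 25 of the 37 members passed the filter on low counts, and statements on tested members refer to these 25. The summed level of these 25 was 791 to 827 CPM in each library.

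**Figure D1:**
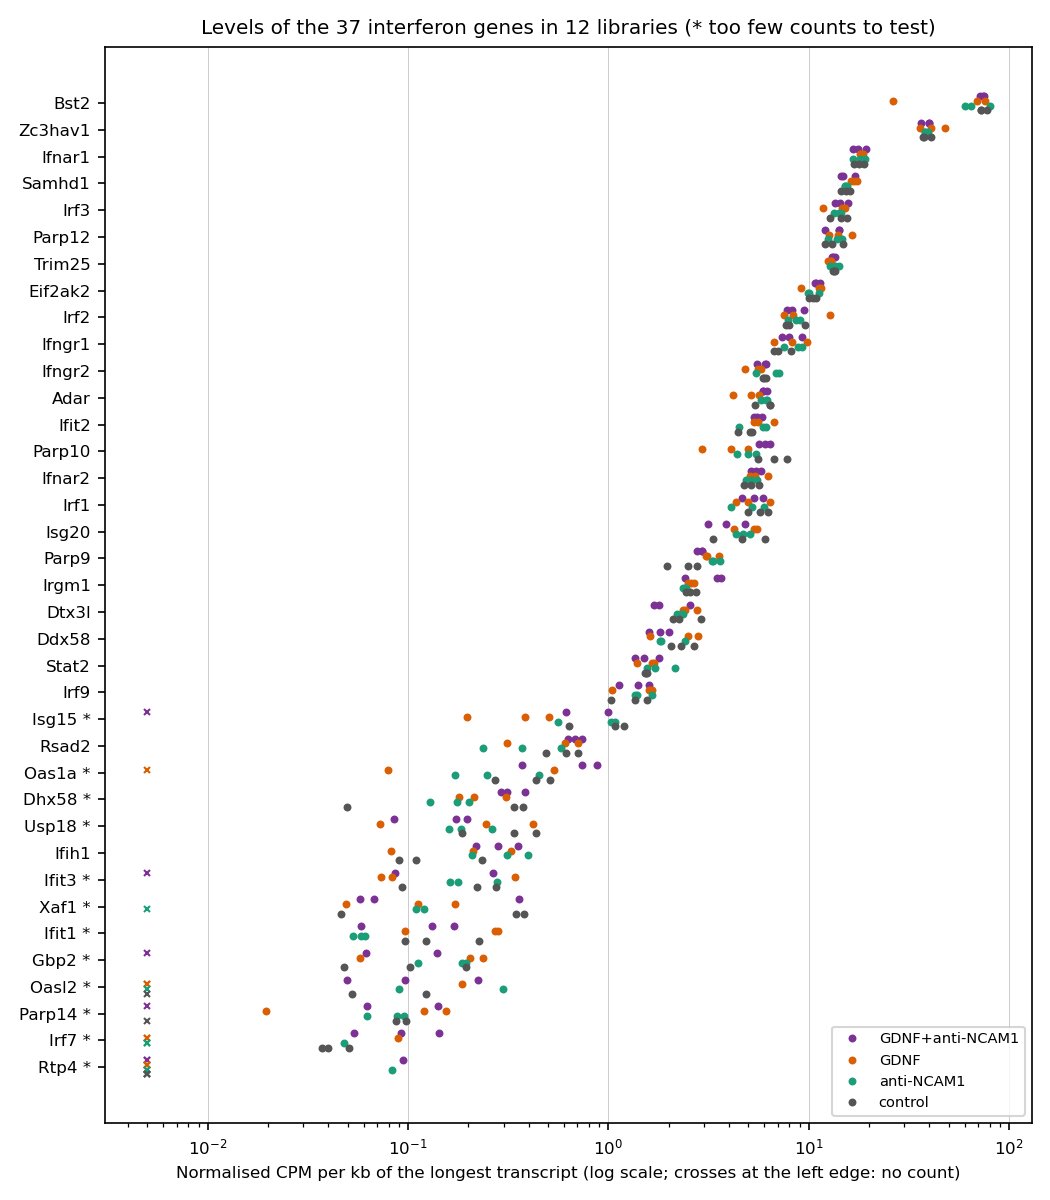
Level of each of the 37 members in the 12 libraries, as normalised CPM per kilobase of the longest transcript on a log scale, with 1 point per library coloured by group and crosses at the left edge for libraries with no count. Bst2 and Zc3hav1 lead, the 4 colours overlap for most genes, and the genes marked with a star, which were not tested, lie near the bottom.

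In the comparison of GDNF with control, which asks what GDNF did to cells given IgG, none of the 25 tested members passed at an adjusted p under 0.05 in edgeR's quasi-likelihood test, and none of all 11332 tested genes did (0%). At an unadjusted p under 0.05 there were 3 members, 1 higher (Parp9, with 11.6% of all genes higher at that limit) and 2 lower (Parp10 and Adar, with 8.70% of all genes lower), or 20.3% of all genes in either direction. DESeq2, whose filtering left 1885 genes and 1 of the 25 members with an adjusted p, and Parp10, Parp9 and Adar without one, passed 31 genes (0.274%), none of them a member, and limma-voom passed 0. The 3 GDNF libraries did not overlap the 3 control libraries for 6 members, against 17.6% of all genes. Ifit2, Parp9 and Samhd1 were higher and Ifngr2, Parp10 and Trim25 lower. The median log2 fold change was 0.04 over the members and 0.00 over all genes, and 19 of the 25 lay within 0.25 of 0. In these bulk libraries fewer cells that express a gene and less RNA per cell cannot be told apart. The labels give BSA only for cultures without GDNF, so the presence of GDNF and the absence of BSA cannot be told apart in any comparison of cultures with and without GDNF.

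The other comparisons share libraries with this one or with each other, so their values are given side by side. The same test passed no member and no gene of the table (0%) in any of them. For anti-NCAM1 against control, 2 members had an unadjusted p under 0.05 (Parp9 higher, Parp10 lower; 5.29% of all genes) and 3 did not overlap between groups (16.9% of all genes). For GDNF+anti-NCAM1 against GDNF, 2 members did (Parp10 and Adar, both higher; 14.0% of all genes), and 4 did not overlap (13.3%). For GDNF+anti-NCAM1 against anti-NCAM1, there were 2 (Rsad2 and Irgm1, both higher; 2.51%), and 3 did not overlap (11.3%). GDNF+anti-NCAM1 against control gave 0 members at that limit (1.95%) and 2 that did not overlap (13.3%). GDNF against anti-NCAM1 gave 1 (Adar, lower; 6.33%), and 3 that did not overlap (6.78%). The interaction, the GDNF effect with antibody minus the GDNF effect with IgG, gave 2 (Parp10 positive, Parp9 negative; 16.8%). Median log2 fold changes of the members in these comparisons lay between −0.11, for the interaction, and 0.03, for GDNF against anti-NCAM1. In these 6 comparisons limma-voom passed no gene, and DESeq2, which gave all 25 members an adjusted p, passed 1 gene of the table for GDNF against anti-NCAM1 (0.00882%) and none in the others.

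Members passed under 3 of the alternative settings, in which many more genes of the table passed as well. For GDNF against control there were 2 of 37 members without a filter on low counts (Bst2 and Parp10, with 3.29% of all genes passing), 3 with sample quality weights (Parp12, Ifngr1 and Parp10, with 23.1%) and 3 without GDNF replicate 1 (Adar, Bst2 and Parp10, with 23.5%). For GDNF+anti-NCAM1 against GDNF there were 1 (Parp10, with 1.55% of genes), 2 (Ifih1 and Parp10, with 12.9%) and 2 (Adar and Parp10, with 17.3%) under the same settings. For the interaction there were 1 (Parp10, with 1.80%), 2 (Parp10 and Parp9, with 21.4%) and 1 (Parp10, with 16.4%).

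**Figure D2:**
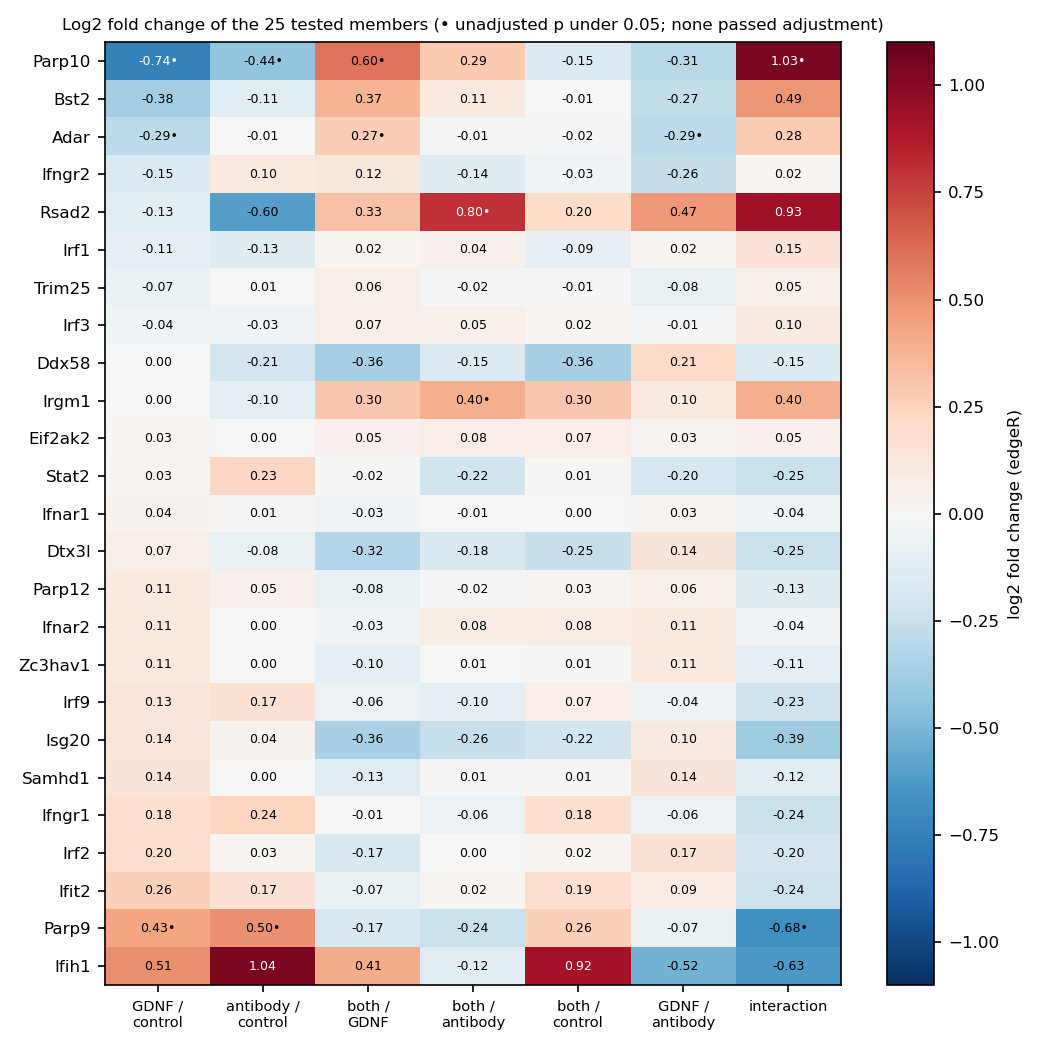
Log2 fold change of the 25 tested members (rows, ordered by GDNF against control) in the 7 comparisons (columns), with colour running from blue for lower to red for higher and a dot for an unadjusted p under 0.05. Most cells are pale, and Parp10, Parp9, Adar, Rsad2 and Irgm1 carry the dots.

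The 4 receptor chains were all detected, between 14.1 and 75.6 CPM. Ifnar1 averaged 69.8 ± 5.44 CPM with GDNF+anti-NCAM1, 71.5 ± 1.47 CPM with GDNF, 70.2 ± 4.69 CPM with anti-NCAM1 and 69.8 ± 3.98 CPM in controls (SD, n = 3 each). Its log2 fold change for GDNF against control was 0.04 ± 0.08 (SE), and the groups overlapped in each comparison. Ifnar2, the other chain of that receptor, spanned 14.5 to 19.1 CPM, and the ligand-binding gamma chain Ifngr1 spanned 14.1 to 20.7 CPM over the 12 libraries. Ifngr1 had a log2 fold change of 0.18 ± 0.15 for GDNF against control (SE, edgeR adjusted p = 0.503), with overlapping groups, and it passed with sample quality weights (0.39, limma adjusted p = 0.0228).

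Ifngr2, the signalling chain of the gamma receptor, had 22.3, 22.6 and 20.4 CPM with GDNF+anti-NCAM1 and 20.7, 21.5 and 17.9 CPM with GDNF. It had 26.2, 20.2 and 25.5 CPM with anti-NCAM1 and 22.7, 21.8 and 22.2 CPM in controls. The GDNF libraries lay just under the controls, with GDNF replicate 3 lowest of the 12. GDNF against control gave a log2 fold change of −0.15 ± 0.12 (SE, edgeR adjusted p = 0.48), and GDNF against anti-NCAM1 one of −0.26 ± 0.12 (adjusted p = 0.705). The interferons themselves were almost undetected: of 16 ligand and type III receptor genes listed, 14 had no count in any library, Ifnab had 1 count, and Il10rb, a receptor chain shared with interleukin 10, was tested.

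Among the transcription factors, Stat2 and Irf9, parts of the type I response complex, were low. Stat2 spanned 5.998 to 9.47 CPM and Irf9 3.96 to 6.37 CPM, and both overlapped between all groups. Irf9 shares 123 of its exonic bases with Rnf31 on the same strand, so reads of that stretch are uncertain. Irf1, an activator induced by interferon gamma, spanned 8.77 to 13.7 CPM with a log2 fold change of −0.11 ± 0.18 (SE) for GDNF against control. Irf3, which is present without stimulation and is activated by phosphorylation, spanned 23.9 to 32.01 CPM. Irf7, the amplifier that interferon itself induces, had 12 counts in all 12 libraries together, with 0 to 3 in each, and was not tested.

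Irf2, which competes with Irf1 for its sites, had 37.3, 31.0 and 32.7 CPM with GDNF+anti-NCAM1 and 33.0, 29.8 and 50.8 CPM with GDNF. Its values were 35.8, 31.4 and 34.3 CPM with anti-NCAM1 and 38.1, 30.4 and 31.5 CPM in controls. GDNF replicate 3 was above every other library, GDNF replicate 2 was below every other library, and GDNF replicate 1 lay among the controls. The log2 fold change of Irf2 for GDNF against control was 0.20 ± 0.16 (SE), and −0.08 without GDNF replicate 3.

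Genes that respond most strongly to interferon in many cells sat near the detection limit. Isg15, a ubiquitin-like modifier, had 0.750, 0 and 0.463 CPM with GDNF+anti-NCAM1 and 0.289, 0.149 and 0.384 CPM with GDNF, where the 0 allows up to 0.534 CPM. It had 0.775, 0.424 and 0.812 CPM with anti-NCAM1 and 0.818, 0.899 and 0.480 CPM in controls. The GDNF libraries were all below the controls, but these values rest on 1 to 3 counts per GDNF library and 4 to 7 per control library, and Isg15 was not among the members that passed when the filter on low counts was dropped. Over all libraries Isg15 came to 0.523 CPM (95% exact Poisson interval 0.379 to 0.705, counting error only). Usp18, the protease that removes Isg15 and damps the receptor, came to 0.414 CPM (0.286 to 0.578), and Ifit1, which binds RNA lacking the host cap, to 0.365 CPM (0.246 to 0.521).

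The 12 untested members together had 27 to 38 counts per library with GDNF+anti-NCAM1, 25 to 34 with GDNF, 23 to 32 with anti-NCAM1 and 31 to 47 in controls. The 4 ranges overlap. Oas1a, Ifit1 and Ifit3 belong to families of similar copies, between which reads may have been split, so their values are uncertain. Rtp4 had 2 counts in the whole set, 1 in GDNF+anti-NCAM1 replicate 2 and 1 in anti-NCAM1 replicate 1. In the fit without the filter on low counts, none of these 12 passed in any comparison, where 0.0179% to 3.29% of all genes did. How large a difference these counts could show was not tested.

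The PARP members, enzymes that attach ADP-ribose to proteins or lack that activity, held the member with the largest fold change and the smallest p for GDNF against control. Parp10, which attaches single ADP-ribose units, had 19.2, 20.6 and 21.8 CPM with GDNF+anti-NCAM1 and 16.9, 14.01 and 9.98 CPM with GDNF. It had 14.9, 17.0 and 18.5 CPM with anti-NCAM1 and 22.7, 26.5 and 19.1 CPM in controls. Both the GDNF and the anti-NCAM1 libraries lay below the controls, whereas GDNF+anti-NCAM1 overlapped the controls and lay above either agent alone. The log2 fold change was −0.74 ± 0.17 for GDNF against control (SE, edgeR adjusted p = 0.165), −0.44 ± 0.17 for anti-NCAM1 against control (adjusted p = 0.853) and 0.60 ± 0.18 for GDNF+anti-NCAM1 against GDNF (adjusted p = 0.331). Its interaction was 1.03 ± 0.24 (adjusted p = 0.24). In GDNF against control Parp10 ranked 13 of 11332 genes by p. It passed without the filter on low counts (−0.75, adjusted p = 0.000372), with sample quality weights (−0.66, adjusted p = 0.000712) and without GDNF replicate 1 (−0.93, adjusted p = 0.00252), and it was −0.44 (adjusted p = 0.446) with the GC and length trend removed and GDNF replicate 3 left out.

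Parp10 shares 205 of its 4275 exonic bases (4.8%) with Plec on the same strand in the GENCODE annotation. Plec, a cytoskeletal linker, was far more abundant, at 640 to 977 CPM. Its log2 fold change was −0.30 ± 0.11 for GDNF against control (SE, edgeR adjusted p = 0.178), −0.39 ± 0.11 for anti-NCAM1 against control (adjusted p = 0.853) and 0.53 ± 0.15 for the interaction (adjusted p = 0.24). How reads of the shared stretch were assigned is not given in the sources used here, and the part of Plec reads in the Parp10 values was not tested.

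Parp9, an interferon-induced PARP that works as a pair with the ubiquitin ligase Dtx3l, had 10.3, 9.79 and 10.3 CPM with GDNF+anti-NCAM1 and 12.6, 10.9 and 11 CPM with GDNF. It had 11.6, 11.7 and 12.8 CPM with anti-NCAM1 and 9.82, 6.94 and 8.89 CPM in controls. Libraries with either agent alone were all above the controls, and GDNF+anti-NCAM1 lay between, overlapping the controls. On the log2 scale the fold change was 0.43 ± 0.16 for GDNF against control (SE, edgeR adjusted p = 0.177), 0.50 ± 0.16 for anti-NCAM1 against control (adjusted p = 0.853) and −0.68 ± 0.22 for the interaction (adjusted p = 0.24). Dtx3l, which overlaps Parp9 by 458 exonic bases on the opposite strand, did not show the same order. It averaged 10.7 ± 2.55 CPM with GDNF+anti-NCAM1, 13.3 ± 1.21 CPM with GDNF, 12.1 ± 0.442 CPM with anti-NCAM1 and 12.9 ± 2.23 CPM in controls (SD, n = 3 each). Its log2 fold change for GDNF against control was 0.07 ± 0.17 (SE).

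Zc3hav1, the PARP-family member without ADP-ribose activity, had 197, 197 and 180 CPM with GDNF+anti-NCAM1 and 178, 201 and 236 CPM with GDNF. Its values were 195, 188 and 187 CPM with anti-NCAM1 and 185, 183 and 200 CPM in controls. GDNF held both the lowest and the highest of the 12 libraries, the highest being replicate 3. GDNF against control had a log2 fold change of 0.11 ± 0.09 (SE), and −0.01 without that library. Parp12, which acts against alphaviruses, spanned 38.8 to 52.9 CPM and overlapped between groups in each comparison, and passed for GDNF against control with sample quality weights (0.27, limma adjusted p = 0.0235). Parp14 had 48 counts in all and was not tested.

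**Figure D3:**
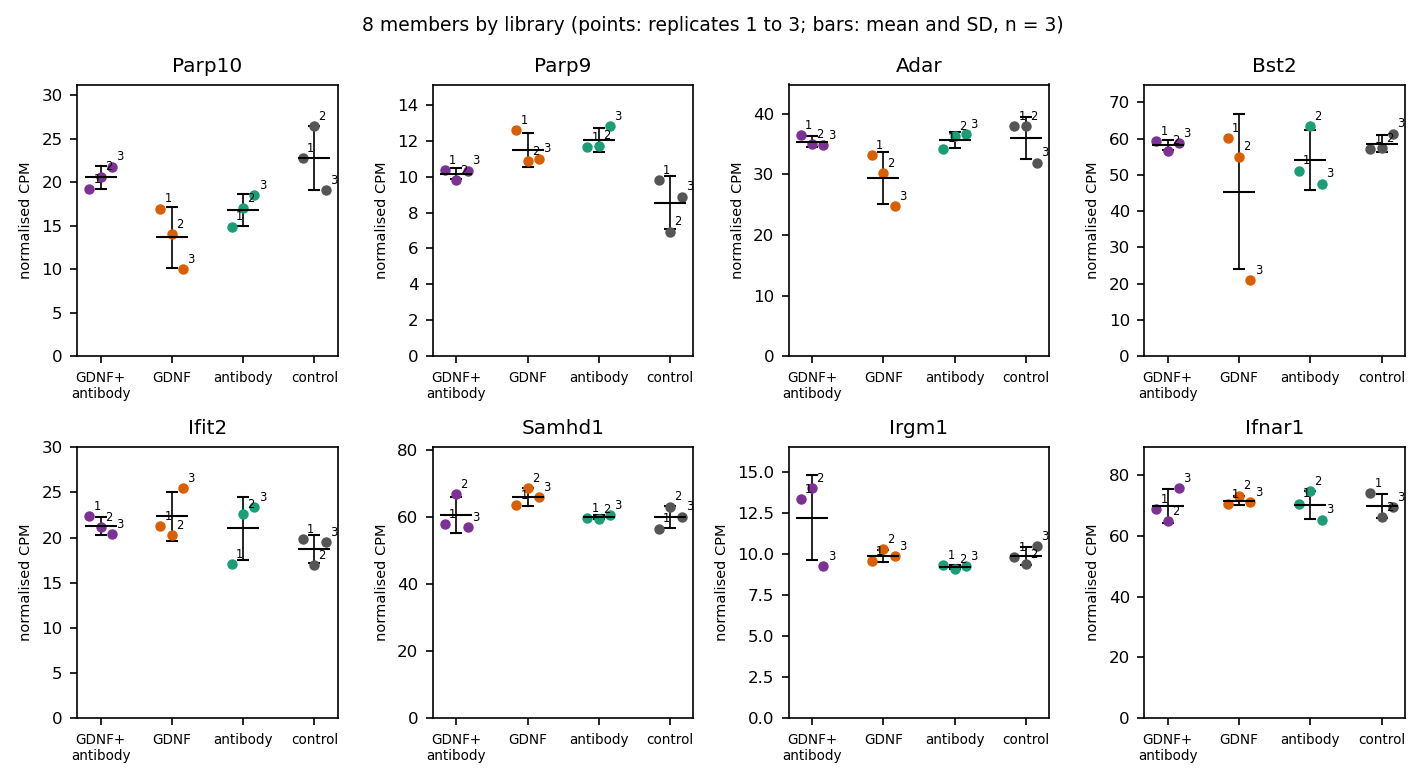
Normalised CPM of 8 members in the 4 groups, with points for replicates 1 to 3 and bars for the mean and SD (n = 3). Parp10 is lowest with GDNF (9.98 to 16.9 CPM), Parp9 is lowest in controls (6.94 to 9.82 CPM), and Bst2 has a single low library, GDNF replicate 3 at 20.9 CPM.

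Of the tested members that sense or edit double-stranded RNA, Adar had the smallest p for GDNF against control. It ranked 1180 of 11332 genes by p, where 20.3% of all genes had an unadjusted p under 0.05. Adar, which converts adenosine to inosine in RNA and keeps cellular RNA from setting off the sensors, had 36.4, 35.0 and 34.9 CPM with GDNF+anti-NCAM1 and 33.2, 30.2 and 24.8 CPM with GDNF. Its values were 34.3, 36.3 and 36.7 CPM with anti-NCAM1 and 38.0, 38.0 and 31.9 CPM in controls. GDNF libraries were below those of GDNF+anti-NCAM1 and of anti-NCAM1, but GDNF replicate 1 lay within the range of the controls. Adar shares 1365 of its 8118 exonic bases with Chrnb2 on the opposite strand, and without a stated use of strand their reads cannot be told apart there. The log2 fold change was −0.29 ± 0.11 for GDNF against control (SE, edgeR adjusted p = 0.194), 0.27 ± 0.11 for GDNF+anti-NCAM1 against GDNF (adjusted p = 0.336) and −0.29 ± 0.11 for GDNF against anti-NCAM1 (adjusted p = 0.705). For GDNF against control it was −0.39 (adjusted p = 0.0239) without GDNF replicate 1, −0.18 without GDNF replicate 3, and −0.09 with the GC and length trend also removed.

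Eif2ak2, the kinase PKR that halts translation on binding double-stranded RNA, spanned 39.5 to 49.6 CPM, with a log2 fold change of 0.03 ± 0.10 (SE) for GDNF against control. Trim25, a ubiquitin ligase that acts on the sensor RIG-I, spanned 69.97 to 78.8 CPM. Its 3 GDNF libraries (72.0, 71.8 and 69.97 CPM) lay just below the controls (74.1, 74.9 and 75.4 CPM), a log2 fold change of −0.07 ± 0.07 (SE, edgeR adjusted p = 0.58).

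The sensors themselves were low. Ddx58, which encodes RIG-I, had 7.80, 6.996 and 6.17 CPM with GDNF+anti-NCAM1, all below the control values of 10.3, 7.96 and 8.89 CPM, as well as 9.70, 6.26 and 10.9 CPM with GDNF and 9.30, 7.07 and 6.98 CPM with anti-NCAM1. The log2 fold change for GDNF+anti-NCAM1 against control was −0.36 ± 0.21 (SE, edgeR adjusted p = 1, rounded). Ifih1, which encodes MDA5, rested on 3 to 14 counts per library. It had 1.20, 1.92 and 1.54 CPM with GDNF+anti-NCAM1, 1.16, 0.447 and 1.79 CPM with GDNF, 2.17, 1.70 and 1.14 CPM with anti-NCAM1, and 0.491, 1.28 and 0.600 CPM in controls. Its log2 fold change for anti-NCAM1 against control was 1.04 ± 0.49 (SE, adjusted p = 0.853), and the groups overlapped. For GDNF+anti-NCAM1 against GDNF it was 0.41 and did not pass, and 1.41 (limma adjusted p = 0.0386) with sample quality weights. Dhx58, the related regulator LGP2, had 48 counts in all and was not tested.

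Among the antiviral effectors, Bst2 had 59.4, 56.7 and 58.8 CPM with GDNF+anti-NCAM1 and 60.1, 55.0 and 20.9 CPM with GDNF. It had 51.2, 63.5 and 47.6 CPM with anti-NCAM1 and 57.1, 57.3 and 61.4 CPM in controls. A single library, GDNF replicate 3, was far below the other 11, which lay between 47.6 and 63.5 CPM. For GDNF against control the log2 fold change was −0.38 ± 0.24 (SE, edgeR adjusted p = 0.356), and −0.03 without that library. Bst2 passed without the filter on low counts (adjusted p = 0.025) and without GDNF replicate 1 (−0.65, adjusted p = 0.0403), both fits that keep GDNF replicate 3.

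Ifit2, which binds viral RNA, was the IFIT member with counts enough to test, at 20.8 CPM over all libraries against 0.365 CPM for Ifit1 and 0.304 CPM for Ifit3. It had 22.3, 21.2 and 20.4 CPM with GDNF+anti-NCAM1 and 21.3, 20.3 and 25.5 CPM with GDNF. It had 17.1, 22.6 and 23.4 CPM with anti-NCAM1 and 19.8, 17.0 and 19.5 CPM in controls. Both groups given GDNF lay above the controls, with log2 fold changes of 0.26 ± 0.14 for GDNF (SE, edgeR adjusted p = 0.29) and 0.19 ± 0.14 for GDNF+anti-NCAM1 (adjusted p = 1, rounded). Samhd1, which depletes the nucleotides that viral DNA synthesis needs, had 63.6, 68.7 and 66.0 CPM with GDNF, above the controls at 56.6, 63.2 and 60.2 CPM. That is a log2 fold change of 0.14 ± 0.08 (SE, adjusted p = 0.347).

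Rsad2, or viperin, which makes a chain-terminating nucleotide, had 2.85, 2.62 and 3.09 CPM with GDNF+anti-NCAM1, above the anti-NCAM1 libraries at 1.55, 0.990 and 2.44 CPM. It had 1.30, 2.53 and 2.94 CPM with GDNF and 2.94, 2.57 and 2.04 CPM in controls. The log2 fold change for GDNF+anti-NCAM1 against anti-NCAM1 was 0.80 ± 0.37 (SE, edgeR adjusted p = 0.999), on 7 to 23 counts per library. Irgm1, a GTPase that acts on vacuoles holding bacteria, had 13.3, 13.99 and 9.26 CPM with GDNF+anti-NCAM1, and 9.55, 10.3 and 9.85 CPM with GDNF. It had 9.30, 9.05 and 9.26 CPM with anti-NCAM1 and 9.82, 9.38 and 10.4 CPM in controls. Replicates 1 and 2 of GDNF+anti-NCAM1 were above all other libraries and replicate 3 was not, for a log2 fold change of 0.40 ± 0.17 against anti-NCAM1 (SE, adjusted p = 0.999). Isg20, a ribonuclease, spanned 3.40 to 6.54 CPM with overlap in each comparison.

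GC content of the transcripts varied together with some of these values. GDNF replicate 3 was the highest of the 12 libraries for 5 of the 25 tested members (Zc3hav1, Irf2, Ifit2, Ifnar2 and Ddx58) and the lowest for 6 (Bst2, Trim25, Irf3, Ifngr2, Adar and Parp10), 11 in all, against 1 to 7 for each other library. Parp10 (57.9% GC), Bst2 (55.3%) and Adar (53.4%) lie above the 49.6% median of all tested genes, and Ifit2 (42.0%) and Parp9 (47.5%) lie below it. Isg20 (57.4%) and Irf3 (56.7%), richer in GC than Bst2 and Adar, had log2 fold changes of 0.14 and −0.04 for GDNF against control. Across the 25 members Spearman's rho between GC content and the log2 fold change for GDNF against control was −0.45, and across 11313 tested genes it was −0.63. These are descriptions across genes of the same libraries, which are not independent replicates. The part of GC content in the values of single members was not tested. With the GC and length trend removed from each library, Parp10 had a log2 fold change of −0.52 (adjusted p = 0.428) and Parp9 of 0.39 in that comparison.

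**Figure D4:**
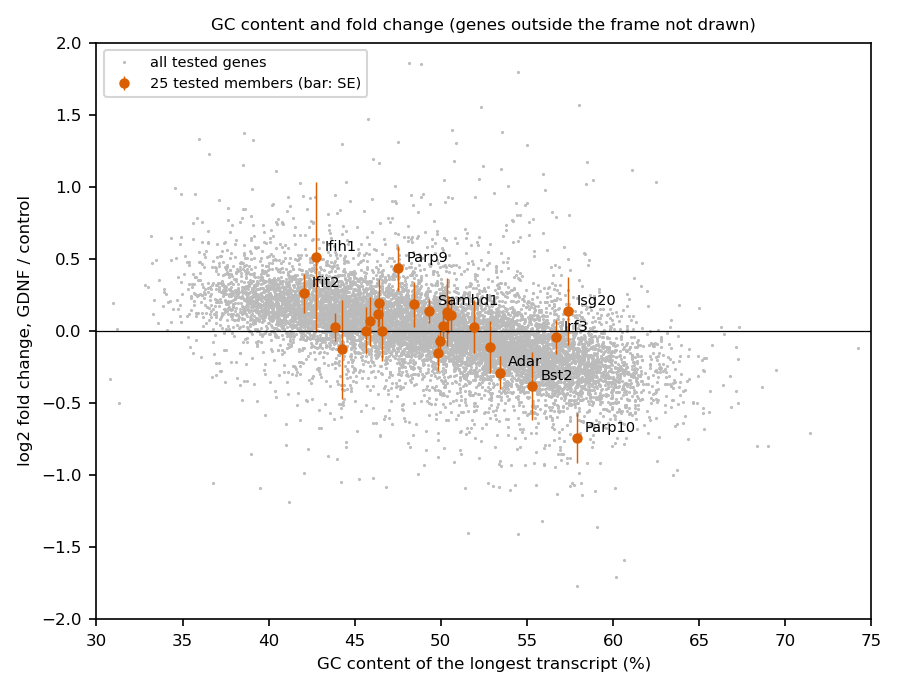
GC content of the longest transcript in percent (horizontal) against the log2 fold change for GDNF against control (vertical), for all tested genes (grey) and the 25 members (orange, bars of 1 SE). The grey cloud slopes down with GC content (rho −0.63). Parp10, Bst2 and Adar lie above its median GC content of 49.6% and below 0 on the vertical axis. Isg20 and Irf3, richer in GC than Bst2 and Adar, lie at 0.14 and −0.04.

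**Figure D5:**
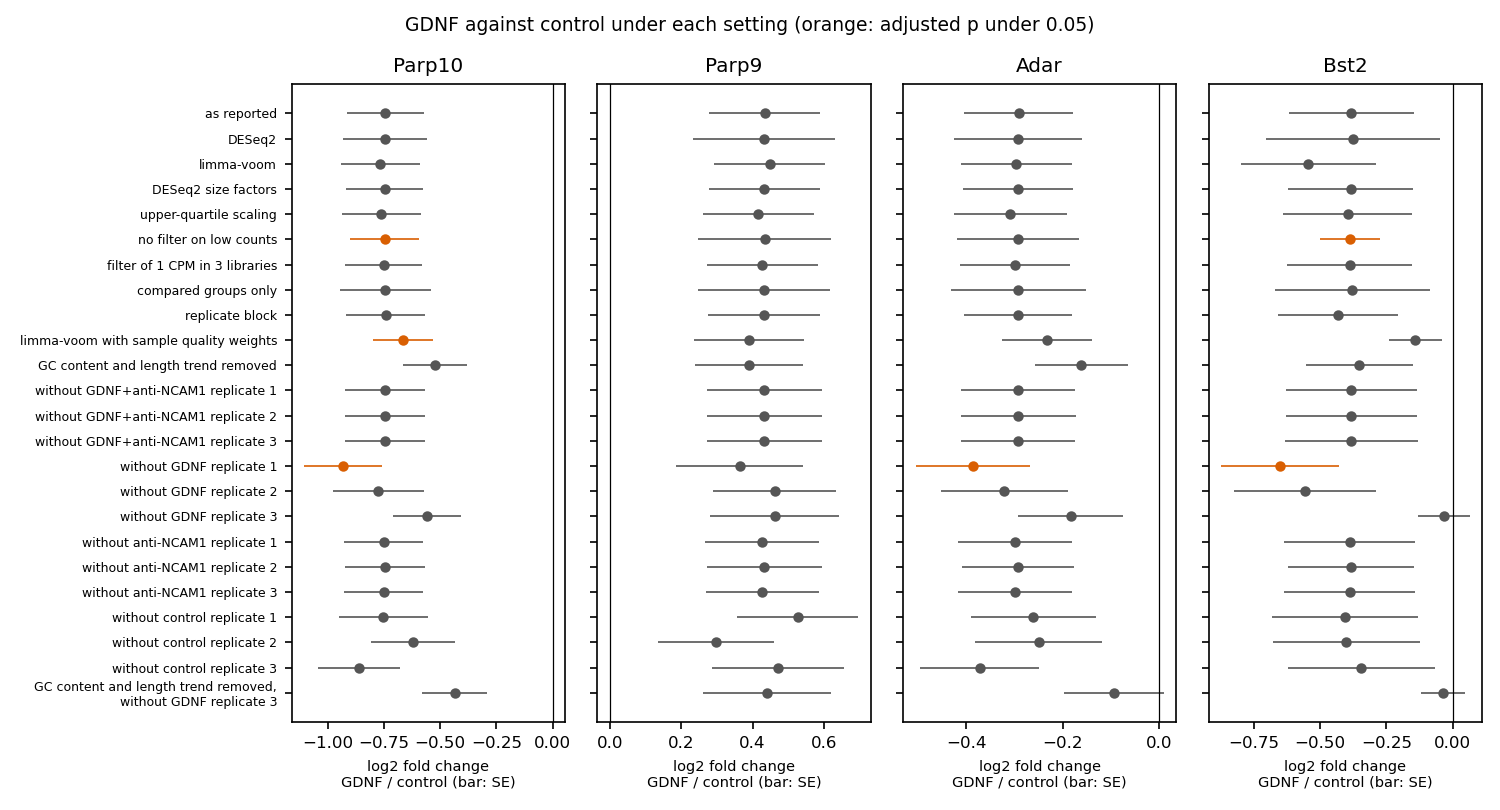
Log2 fold change for GDNF against control of Parp10, Parp9, Adar and Bst2 under each setting of the fit, with bars of 1 SE and orange for an adjusted p under 0.05. Parp10 lies between −0.93 and −0.44 and Parp9 between 0.30 and 0.53, whereas Bst2 moves to −0.03 when GDNF replicate 3 is left out.

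The rest of the pathway was read from a list of 97 other interferon genes, among them Jak1 and Tyk2. Of these, 47 had counts enough to test and 10 had no count in any library. None passed in edgeR's test for GDNF against control, and 10 had an unadjusted p under 0.05, 4 higher and 6 lower, close to the 20.3% of all genes at that limit, with a median log2 fold change of −0.05. The 6 with the smallest p were Irf2bp1 (−0.66 ± 0.15) and Irf2bp2 (−0.34 ± 0.09), corepressors that bind Irf2, the interferon-inducible protein Nmi (0.60 ± 0.18), the helicases Helz2 (−0.52 ± 0.17) and Mov10 (−0.39 ± 0.13), and the transcription factor Irf8 (−0.27 ± 0.09), with adjusted p of 0.165 to 0.169 (SE). Irf2bp1 had 22.3, 21.2 and 13.4 CPM with GDNF, all below the controls at 30.3, 29.2 and 30.0 CPM, with GDNF replicate 3 again the lowest. Of 24 adaptors and kinases of nucleic acid sensing, 18 were tested and none passed, and 4 had an unadjusted p under 0.05, again close to the 20.3% of all genes: Aim2 (0.46), Sting1 (0.23) and Azi2 (0.19) higher and Mavs (−0.28) lower on the log2 scale. The genes of MHC class I and peptide loading, left out of the set, had all 14 members tested and no gene that passed. Their median log2 fold change for GDNF against control was −0.25, against 0.04 for the interferon set. The difference between these medians was not tested. GDNF replicate 3 was the lowest of the 12 libraries for 9 of the 14, and without it the medians were −0.07 for the MHC genes and −0.01 for the interferon set.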

How the data were processed

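Illumina RNA libraries of 12 cultures were made, per the labels' protocols. The authors deposited counts per gene as whole numbers without scaling. Tools named in the submitters' processing notes are FastQC, MultiQC and kallisto 0.46.2, with the builds GRCm39 and mm10. The build behind the counts, the use of strand and the assignment of shared reads are not given in the sources used here. Symbols matched 52081 of 55414 identifiers, and those without one held 6.55% of counts.

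Genes were kept with filterByExpr (minimum count 10, minimum total 15), leaving 11332. After TMM scaling, 1 model of 4 groups without covariates was fitted (edgeR 4.0.16 under R 4.3.3, quasi-likelihood F test, 2-sided), with Benjamini-Hochberg adjustment over all tested genes of each of 7 comparisons, after checking on simulated data. CPM are normalised by TMM. Levels over all libraries divide summed counts by summed totals. Lengths, GC content and exon overlaps are of GENCODE M21. DESeq2 1.42.0, limma-voom 3.58.1, other scalings and filters, a replicate block, sample quality weights, removal of the GC and length trend and leaving out each library were alternatives. The members, gene lists and naming rule were chosen with earlier results of these data known. Named genes are up to 10 members with the smallest p for GDNF against control and 3 for each other comparison. Members with a set role and 6 genes of the other pathway list are named as well. Outside this rule, Isg20, Irf3, Parp12, Eif2ak2, Aim2, Sting1, Azi2, Mavs, Plec, Rnf31, Dtx3l and Trim25 were chosen after their values were seen. Promoter windows of Parp9, Parp10, Parp14, Usp18, Rtp4 and Dhx58 were not used here.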

Additional observations from a re-analysis of the deposited data

Results flagged for a closer look

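The GDNF effect on a pair of members ran in opposite directions with and without the antibody, where cultures without GDNF also differ by their BSA. For Parp10 the GDNF effect was 0.29 ± 0.17 on the log2 scale among cultures given the antibody and −0.74 ± 0.17 among cultures given IgG, and the difference, the interaction, was 1.03 ± 0.24 (SE, edgeR adjusted p = 0.24). For Parp9 the GDNF effect was −0.24 ± 0.16 with the antibody and 0.43 ± 0.16 with IgG, and the interaction was −0.679 ± 0.22 (SE, edgeR adjusted p = 0.24). In both genes the compared groups did not overlap in either contrast. That was so for 17.6% of all genes in GDNF against control and 11.3% in GDNF+anti-NCAM1 against anti-NCAM1. The share without overlap in both was not computed. The effects among cultures given the antibody had an edgeR adjusted p of 0.999 for each gene. Neither interaction passed the threshold, and 16.8% of all genes had an interaction with an unadjusted p under 0.05. GDNF replicate 3 was the lowest of the 12 libraries for Parp10 but not for Parp9. Plec, which shares exonic bases with Parp10 on the same strand, had a GDNF effect of 0.23 ± 0.11 with the antibody and −0.30 ± 0.11 with IgG (SE). The part of Plec reads in the Parp10 values was not tested. Parp9 shares 458 exonic bases with Dtx3l on the opposite strand, and the use of strand is not given. Across genes, the interaction followed GC content with a Spearman's rho of 0.63 over 11313 genes and 0.27 over the 25 members, and its part in these values was not tested.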

How the results depend on the processing

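There were 23 alternatives, 12 of which left out 1 library. The count of members that passed stayed at 0 in every alternative for anti-NCAM1 against control, GDNF+anti-NCAM1 against anti-NCAM1, GDNF+anti-NCAM1 against control and GDNF against anti-NCAM1, in which the share of all genes that passed was highest at 2.44% (with sample quality weights), 0.0618% (with the same weights), 0.227% (in a fit of the compared groups) and 0.837% (without GDNF replicate 1). Without a filter on low counts it was 2 for GDNF against control (among 22404 genes), 1 for GDNF+anti-NCAM1 against GDNF and 1 for the interaction. With sample quality weights, which gave GDNF replicates 1, 2 and 3 weights of 0.38, 2.97 and 0.137 and the other libraries 0.603 to 1.41, it was 3 for GDNF against control, 2 for GDNF+anti-NCAM1 against GDNF and 2 for the interaction. Leaving out single libraries gave counts of 0 to 3 for GDNF against control (3 without GDNF replicate 1), 0 to 2 for GDNF+anti-NCAM1 against GDNF (2 without the same library) and 0 to 1 for the interaction (likewise). The median of the members for the interaction ranged from −0.127 to −0.00223 with single libraries left out, the highest being without GDNF replicate 3. The cause of these differences was not tested. The same-numbered libraries did not pair: correlations of their deviations were −0.23 to 0.12 over 18 pairs, 1 of them over 0.1, and 4 of 12 libraries were closest to one of their own number. The replicate block was an alternative alone because the labels do not say that the replicate number marks a shared batch. It passed 0 members in each comparison and gave Parp10 −0.74 (edgeR adjusted p = 0.165) for GDNF against control.

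In GDNF against control, some members that did not pass changed sign. Irgm1, at 0.00, was −0.000597 with DESeq2, −0.000745 with DESeq2 size factors, −0.0181 with upper-quartile scaling, −2.51e-05 with no filter, −0.00658 with a filter of 1 CPM in 3 libraries, −0.000154 in a fit of the compared groups, −0.00098 with the replicate block and −0.0854 with the GC and length trend removed. With sample quality weights Irf2 was −0.0949, Ifih1 −0.405, Stat2 −0.111, Irf9 −0.188 and Irf1 0.139, and with no filter Ddx58 was 0.000899. With the trend removed and GDNF replicate 3 left out, an alternative chosen after seeing the data, Zc3hav1 was −0.0269, Irf2 −0.108, Ifih1 −0.0634, Irgm1 −0.0438 and Irf1 0.0376. Leaving out single libraries gave ranges of −0.00899 to 0.206 for Zc3hav1, −0.0836 to 0.332 for Irf2, −0.00911 to 1.04 for Ifih1, −0.041 to 0.046 for Irgm1, −0.383 to 0.142 for Rsad2, −0.175 to 0.187 for Ddx58, −0.00576 to 0.0703 for Ifnar1, −0.0321 to 0.101 for Stat2, −0.0331 to 0.297 for Irf9 and −0.289 to 0.0109 for Irf1. Parp10, Parp9, Adar, Bst2, Ifit2, Samhd1, Ifngr1, Ifngr2 and Ifnar2 kept their sign in all alternatives run. Depth limits the 12 untested members, whose counts were 0 to 11 per library.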
